A study of Homo sapiens with 9 samples.

Results

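A set of 10 genes for enzymes that detoxify quinones, aldehydes, ketones and epoxides were followed across the series: NQO1, NQO2, ALDH3A1, AKR1C1, AKR1C2, AKR1C3, AKR1B10, CBR1, CBR3 and EPHX1. They were taken by symbol from a table of 59452 gene symbols or identifiers, all 10 were found, and 9 of the 10 had enough reads to be among the 15528 genes tested. The members were selected on measured values, with the log2 fold changes between AT-0174 and vehicle in view, so the values of that comparison are given here as a description. RNA was sequenced from 9 cultures of MDA-MB-453, a human breast cancer cell line labelled triple-negative and wild type, in 3 groups of 3 biological replicates. The groups were regular attached culture with vehicle (DMSO), forced suspension on poly-HEMA with vehicle, and forced suspension with 10 µmol/L AT-0174 (AT0174 in the labels), a dual inhibitor of the tryptophan-catabolizing enzymes TDO2 and IDO1. All cells were grown in DMEM with fetal bovine serum and collected at 48 hours. AT-0174 was not given to attached cells, so its effect there was not measured, and every group comes from the same cell line.

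Library totals ran from 36649997 to 48019126 estimated counts. The luminal markers KRT8, KRT18, EPCAM and FOXA1 were high in all 9 libraries, with at least 11284 counts each. Of the receptors whose absence defines triple-negative disease, ESR1 had at most 4 counts and PGR at most 18, but ERBB2 had 37764 to 50812, against the label. The basal markers KRT5 and KRT14 had at most 3 counts and TP63 206 to 266. Of the markers of other cell types, CD3E was at 0, PTPRC had at most 2 counts, PECAM1 at most 7 and COL3A1 at most 1, whereas the fibroblast collagen COL1A1 had 4337 to 5789. Transcripts of the mitochondrial genome took 7.56% to 9.32% of counts in attached cells, 4.05% to 4.34% in suspended cells with vehicle and 3.73% to 5.51% with AT-0174; the part of this shift in the results that follow was not tested.

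The enzymes fall into 5 kinds. NQO1 and its homolog NQO2 carry out the full 2-electron reduction of quinones to hydroquinones, which bypasses the reactive semiquinone. ALDH3A1 oxidizes aldehydes, including those from lipid peroxidation, to acids. AKR1C1, AKR1C2 and AKR1C3 are aldo-keto reductases that act on ketosteroids, prostaglandins and xenobiotic carbonyls, and AKR1B10 reduces aldehydes and retinal. CBR1 and CBR3 are carbonyl reductases of the short-chain dehydrogenase family, and EPHX1 is the microsomal epoxide hydrolase. NQO1 is the textbook target of the transcription factor NRF2, which binds antioxidant response elements. Both NQO1 and ALDH3A1 are also known targets of the aryl hydrocarbon receptor (AHR), which binds xenobiotic response elements. AHR is activated by kynurenine, a catabolite downstream of TDO2 and IDO1.

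On build GRCh38, NQO1 (ENSG00000181019) lies on the minus strand at chr16:69706996-69726668, NQO2 (ENSG00000124588) at chr6:2987987-3019755, ALDH3A1 (ENSG00000108602) on the minus strand at chr17:19737984-19748943 and EPHX1 (ENSG00000143819) at chr1:225810124-225845563. CBR1 (ENSG00000159228) and CBR3 (ENSG00000159231) are neighbours at chr21:36069941-36073166 and chr21:36135079-36146562. AKR1B10 (ENSG00000198074) is at chr7:134527567-134541412. AKR1C1 (ENSG00000187134), AKR1C2 (ENSG00000151632, minus strand) and AKR1C3 (ENSG00000196139) sit side by side within 144.4 kb of chromosome 10, at chr10:4963253-4983283, chr10:4987775-5018031 and chr10:5035354-5107686.

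The AKR1C genes need care because reads can be shared among them. Over 972 coding bases with the stop codon, AKR1C1 and AKR1C2 differed at 19 positions (98.0% identity) and shared an unbroken run of 189 bases, longer than a read of this study. AKR1C3 was 91.5% identical to AKR1C1 and 91.0% to AKR1C2. Of the distinct 31-base words in its annotated transcripts, AKR1C2 shared 45.5% with another gene, AKR1C1 31.8% and AKR1C3 8.29%. For words of 150 bases, the length of a read, the shares were lower: AKR1C2 10.9%, AKR1C1 7.501% and AKR1C3 0.508%. The stretch shown here, coding bases 73 to 162 of each reference transcript, is the in-frame window of 90 bases where AKR1C1 and AKR1C2 differ most, at 10 positions, and so is not typical of the rest. It is printed because such differences are what allows a read to be assigned. Capitals mark bases that differ from AKR1C2 in the AKR1C1 and AKR1C3 lines, and in the AKR1C2 line bases that differ from either of the others.
AKR1C1: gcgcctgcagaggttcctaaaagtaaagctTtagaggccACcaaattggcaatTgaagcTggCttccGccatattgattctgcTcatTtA
AKR1C2: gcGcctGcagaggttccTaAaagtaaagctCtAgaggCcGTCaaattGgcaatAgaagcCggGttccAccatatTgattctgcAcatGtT
AKR1C3: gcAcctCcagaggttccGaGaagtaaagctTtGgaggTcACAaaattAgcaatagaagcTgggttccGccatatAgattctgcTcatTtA
In this window AKR1C3 differed from AKR1C2 at 17 positions. Values are therefore given for each of the 3 genes and for their sum, which does not depend on how reads were divided.

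Promoters of 7 of the 10 members were in the RefSeq promoter table (GRCh38.p14); ALDH3A1, AKR1B10 and CBR3 had none. The antioxidant response element core was searched as TGAC, any 3 bases and GCA, on both strands, in windows of 1050 bases that end 50 bases past each start site. It was found upstream of NQO1, EPHX1 (the third of its 3 start sites) and CBR1. Across 35116 promoters, 10.3% of windows of this length held it, so a match is a description of the letters and not of a site in use. Each match is shown with 20 bases on either side, on the strand of the gene, with the match in capitals.
NQO1 (chr16:69726986-69727035, minus strand, match starting 455 bases upstream): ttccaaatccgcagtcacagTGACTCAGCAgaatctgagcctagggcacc
EPHX1 (chr1:225825256-225825305, plus strand, 78 bases upstream): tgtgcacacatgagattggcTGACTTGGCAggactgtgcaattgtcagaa
CBR1 (chr21:36069844-36069893, plus strand, 160 bases upstream, match on the opposite strand): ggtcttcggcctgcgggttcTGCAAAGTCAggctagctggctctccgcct
The xenobiotic response element core, TNGCGTG on both strands, was found only at NQO1 among the 10 start sites searched, at the start site itself, against 17.5% of windows over all promoters. NQO2, AKR1C1, AKR1C2 and AKR1C3 held neither set of letters in these windows.

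The enzymes differed widely in level. Per transcript length, in attached cells, NQO1 had a mean TPM (a level scaled to transcript length and to a fixed library total) of 1053 ± 41.3 (SD, n = 3) and was 82nd of all genes by mean TPM over the 9 libraries. EPHX1 followed at 146 ± 5.54 TPM, NQO2 at 61.0 ± 0.961 TPM and CBR3 at 33.8 ± 1.41 TPM. The aldo-keto reductases were far lower, at 5.93 ± 1.1 TPM for AKR1C2, 2.31 ± 0.457 TPM for AKR1C3 and 0.871 ± 0.278 TPM for AKR1C1, with ALDH3A1 at 1.39 ± 0.327 TPM between the last 2. NQO1 alone made up 83.0% of the summed TPM of the 10 genes over all libraries. The order from NQO1 down to AKR1B10 was the same in each group, and the ranges of neighbours overlapped only for ALDH3A1 and AKR1C1 in suspended cells with vehicle and for AKR1C3 and ALDH3A1 with AT-0174.

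CBR1 was at the limit of detection. It had 0 counts in 8 of 9 libraries, which allows a level of up to 0.0819 CPM (counts scaled to library size, with no correction for length) in the shallowest library, and 2 counts in suspended vehicle replicate 1. Such limits cover counting error only. CBR1 lies inside SETD4, which is on the opposite strand and had 388 to 523 counts. CBR1 was not tested, and no fold change was calculated.

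**Figure D1:**
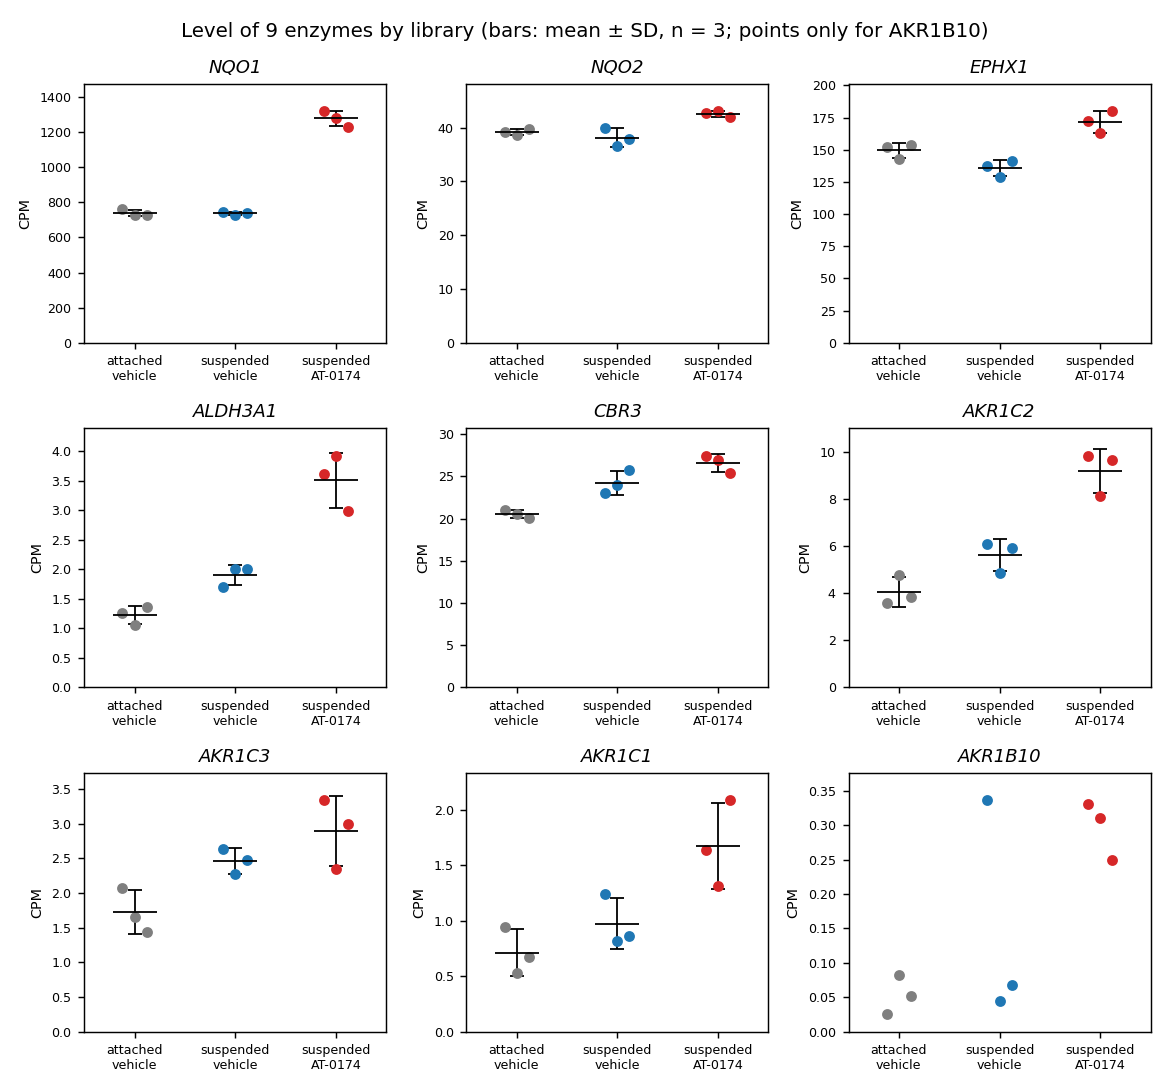
Level of 9 enzymes in each of the 9 libraries, in CPM on a linear axis from 0; points are libraries, and bars are the mean ± SD of 3 libraries, left out for AKR1B10 because of its low counts. NQO1 lay at 726 to 759 CPM in both vehicle groups and at 1231 to 1317 CPM with AT-0174.

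The first comparison asked what loss of attachment did to these genes, with vehicle in both groups. Suspended cells had more ALDH3A1, AKR1C2 and CBR3 mRNA and slightly less EPHX1, while the CPM of NQO1, the most abundant member, overlapped between the groups. Of the 9 members tested, 3 were higher, 1 was lower and 5 did not pass an adjusted p of 0.05 (edgeR quasi-likelihood test, adjusted over all genes). Over all 15528 genes 21.2% were called, 10.4% higher and 10.8% lower in suspension, so calls were common in this comparison. In CPM the libraries of the groups did not overlap for 5 of the 9 members, 4 higher and 1 lower. Over all tested genes this held for 38.1% (19.4% higher, 18.7% lower). The median log2 fold change of the 9 members was 0.44 and that of all tested genes −0.0003. The 9 include AKR1B10, which had few counts and entered the tested set only through the AT-0174 libraries. Without AKR1B10, the members ran from −0.14 (EPHX1) to 0.63 (ALDH3A1). The suspended vehicle libraries also serve as the control for AT-0174, on which the members were chosen, so the 2 comparisons are not independent. As the samples are bulk RNA, fewer expressing cells and less RNA per cell cannot be told apart.

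ALDH3A1 had 1.25, 1.05 and 1.36 CPM in the attached libraries and 1.71, 1.99 and 2.00 CPM in the suspended ones, from 38 to 53 and 66 to 88 counts. In CPM all suspended libraries were above all attached ones. On the TPM scale the groups overlapped, at 1.19 to 1.77 TPM attached and 1.75 to 2.58 TPM suspended. The log2 fold change was 0.63 (SE 0.17), a 1.55-fold rise, with an adjusted p of 0.0216 (edgeR). The call was lost without attached replicate 2 (adjusted p = 0.0683, edgeR), suspended replicate 2 (0.0686) or suspended replicate 3 (0.0640), and the direction held in each.

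CBR3, one of the carbonyl reductases, had 21.1, 20.5 and 20.1 CPM attached and 23.0, 23.96 and 25.8 CPM suspended, with no overlap. The log2 fold change was 0.24 (SE 0.05) with an adjusted p of 0.00805 (edgeR), and it was the only member called under all 14 alternative settings, at adjusted p-values from 0.000811 to 0.0347 (edgeR, limma or DESeq2). CBR3 lies wholly within the antisense transcript CBR3-AS1, over 11484 bases on the opposite strand. CBR3-AS1 had 191 to 338 counts against 741 to 1325 for CBR3, and its log2 fold change in suspension was 0.12 (SE 0.11) with an adjusted p of 0.466 (edgeR). The strand setting of the counting is not given in the sources used here, so part of either count could belong to the other.

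EPHX1 had 152, 143 and 153 CPM attached and 137, 129 and 141 CPM suspended. The groups did not overlap, and the log2 fold change was −0.14 (SE 0.05) with an adjusted p of 0.0493 (edgeR), close to the threshold. With limma-voom the adjusted p was 0.0503, and with edgeR it was 0.133, 0.153, 0.0872 and 0.197 without attached replicate 1, attached replicate 3, suspended replicate 1 and suspended replicate 2. On the TPM scale the groups overlapped, at 140.0 to 150.5 TPM attached and 137 to 151 TPM suspended.

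NQO1 had 759, 730.1 and 726 CPM attached and 743, 726 and 739.9 CPM suspended, with overlapping ranges. The log2 fold change was −0.0045 (SE 0.0325) with an adjusted p of 0.941 (edgeR). The scale matters here: in TPM, NQO1 was at 1017 to 1098 in attached and 1108 to 1128 in suspended libraries, which did not overlap. The share of mitochondrial transcripts, which count toward the TPM total, was lower in suspended libraries; its part in this difference was not tested. NQO2 had 39.3, 38.6 and 39.7 CPM attached and 39.9, 36.5 and 37.9 CPM suspended, which overlapped (log2 fold change −0.041, SE 0.042, adjusted p = 0.533, edgeR). The NQO2 value was −0.071 without suspended replicate 1 and −0.0067 without suspended replicate 2.

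The AKR1C sum was clearer than its parts. It was 6.56, 6.94 and 5.95 CPM attached and 9.97, 7.93 and 9.26 CPM suspended, from 231 to 251 and 350.0 to 407 counts. All suspended libraries were above all attached ones, with a log2 fold change of 0.48 (SE 0.11), a 1.40-fold rise, and an adjusted p of 0.0107 (edgeR). The sum was called under all 14 alternative settings, with a highest adjusted p of 0.0497 (edgeR, limma or DESeq2). AKR1C2, its largest part, had 3.56, 4.76 and 3.84 CPM attached and 6.07, 4.85 and 5.92 CPM suspended, where the closest libraries of the groups nearly met. Its log2 fold change was 0.47 (SE 0.13) with an adjusted p of 0.0246 (edgeR), lost without attached replicate 1 (0.0840), attached replicate 3 (0.0828), suspended replicate 1 (0.0757) or suspended replicate 3 (0.0756). AKR1C3, known for making testosterone from androstenedione, had 2.07, 1.66 and 1.44 CPM attached and 2.64, 2.27 and 2.48 CPM suspended, which did not overlap. Its log2 fold change of 0.51 (SE 0.18) did not pass (adjusted p = 0.0622, edgeR) and did so without attached replicate 1 (0.0371) and where at least 10 counts were required in every library (0.0495). AKR1C1, a progesterone-inactivating enzyme, had 0.941, 0.526 and 0.67 CPM attached and 1.24, 0.816 and 0.865 CPM suspended, which overlapped (log2 fold change 0.44, SE 0.29, adjusted p = 0.304, edgeR). Its log2 fold change was 0.69 without attached replicate 1, 0.27 without attached replicate 2, 0.24 without suspended replicate 1 and 0.76 with counts rebuilt from TPM, and it was called in none of these.

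AKR1B10 had 1, 3 and 2 counts in the attached libraries and 13, 2 and 3 in the suspended ones. Suspended replicate 1 held 13 of the 18 suspended counts. The ratio of summed counts per library total was 2.77 (exact 95% interval 1.05 to 8.53, counting error only), and 1.11 (0.269 to 4.37) without that library. The gene entered the tested set only through the AT-0174 libraries.

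The count of 4 called members itself rested on single libraries. It was 2 without attached replicate 3 or suspended replicate 1 (ALDH3A1 and CBR3 each time), without suspended replicate 2 (AKR1C2 and CBR3) and without suspended replicate 3 (CBR3 and EPHX1). With counts rebuilt from TPM only CBR3 remained.

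**Figure D2:**
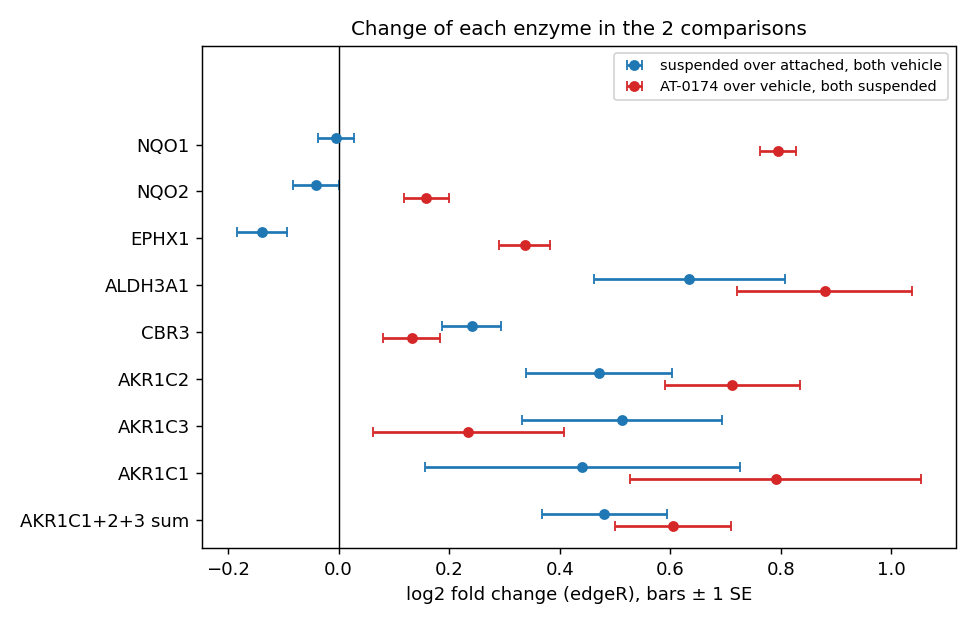
Log2 fold change of 8 members and of the AKR1C sum, on the horizontal axis, with bars of 1 SE, for suspended over attached cells (blue) and AT-0174 over vehicle in suspended cells (red); both use the same suspended vehicle libraries. NQO1 sat at −0.0045 in the first and 0.79 in the second, CBR3 at 0.24 and 0.13.

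The second comparison set AT-0174 against vehicle in suspended cells. Because it chose the members, its values are a description with no test per gene. All 9 members that entered the fit had a value above 0. Their median log2 fold change was 0.71, where that of all tested genes was 0.0013. Both member figures include AKR1B10, which entered the tested set only through the AT-0174 libraries. Without AKR1B10, the members ran from 0.13 (CBR3) to 0.88 (ALDH3A1). By edgeR's adjusted p, 4 of the 9 were among the genes called higher (NQO1, ALDH3A1, AKR1C2 and EPHX1), beside 0.522% of all tested genes, and nothing is read from this since the choice of members fixed it. The edgeR calls came down to NQO1 and EPHX1 without suspended vehicle replicate 2, suspended vehicle replicate 3 or AT-0174 replicate 1. In CPM the libraries did not overlap for 6 of the 9, all higher, beside 15.4% of all tested genes (7.75% higher, 7.66% lower).

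NQO1 had 743, 726 and 739.9 CPM with vehicle and 1317, 1282 and 1231 CPM with AT-0174. The means were 736 ± 9.28 and 1277 ± 43.2 CPM (SD, n = 3), and the gap between the groups was many times the spread within either. The log2 fold change was 0.79 (SE 0.03), or 1.73-fold. In TPM the groups stood at 1108 to 1128 and 1807 to 1990, also apart. NQO2, which uses dihydronicotinamide riboside in place of NADH or NADPH, moved far less: it had 39.9, 36.5 and 37.9 CPM with vehicle and 42.7, 43.0 and 41.9 CPM with AT-0174, a log2 fold change of 0.16 (SE 0.04), without overlap.

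The higher NQO1 level was spread over its transcripts. The transcript with the highest TPM was ENST00000564043, of 892 bases, at a mean of 466 TPM in attached cells, 471 TPM in suspended cells with vehicle and 787 TPM with AT-0174. It was followed by ENST00000439109 (924 bases) at 235, 248 and 442 TPM and ENST00000379046 (1105 bases) at 224, 260 and 424 TPM. The reference transcript ENST00000320623, of 2521 bases, had 102, 117 and 195 TPM. By mean TPM each of these 4 was lowest in attached cells and highest with AT-0174. The order of the vehicle groups depends on the scale, as NQO1 overlapped between them in CPM. Division of reads among overlapping transcripts is an estimate by Salmon.

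**Figure D3:**
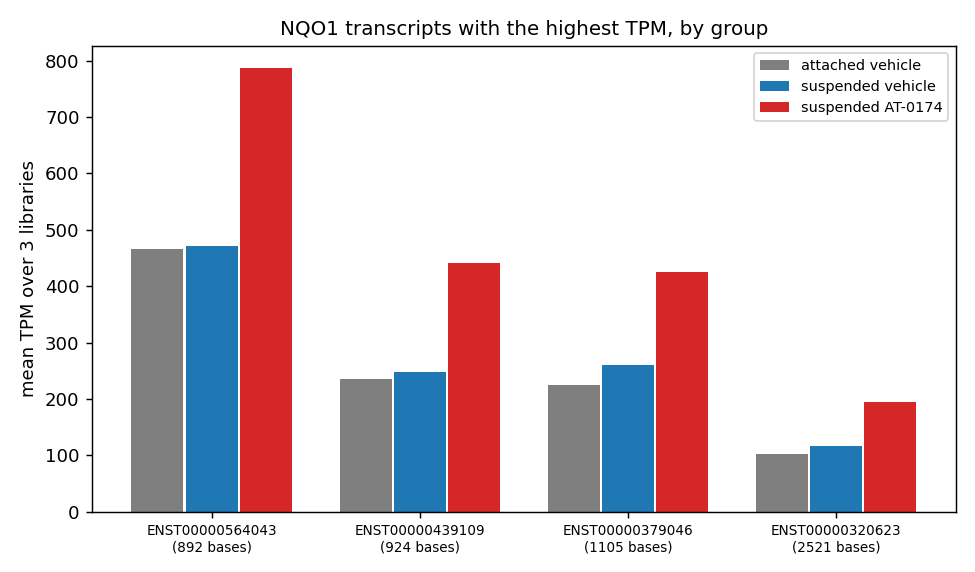
Mean TPM over 3 libraries of the 4 NQO1 transcripts with the highest TPM, by group, with lengths in bases under the names; the bars carry no error. The 4 means with AT-0174 were 787, 442, 424 and 195 TPM, each above both vehicle groups.

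ALDH3A1 had 1.71, 1.99 and 2.00 CPM with vehicle and 3.60, 3.92 and 2.99 CPM with AT-0174, from 66 to 88 counts and at least 132 counts. The groups did not overlap, and the log2 fold change was 0.88 (SE 0.16), or 1.84-fold. The transcript with its highest mean TPM, ENST00000225740, held 0% to 53.1% of ALDH3A1 TPM in the vehicle libraries and 45.1% to 60.6% with AT-0174, an unsteady assignment at these counts. EPHX1 had 137, 129 and 141 CPM with vehicle and 172, 163 and 179.7 CPM with AT-0174, again apart, with a log2 fold change of 0.34 (SE 0.05). One transcript, ENST00000272167, carried most of EPHX1, at 130.5 TPM in attached cells, 128 TPM in suspended cells with vehicle and 156 TPM with AT-0174. CBR3, with its only transcript ENST00000290354, had 23.0, 23.96 and 25.8 CPM with vehicle and 27.4, 26.9 and 25.4 CPM with AT-0174, and here the groups overlapped (log2 fold change 0.13, SE 0.05). CBR3-AS1 had 6.63 ± 0.481 CPM and 6.90 ± 0.113 CPM (SD, n = 3).

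The AKR1C sum had 9.97, 7.93 and 9.26 CPM with vehicle and 14.8, 11.8 and 14.7 CPM with AT-0174. The groups did not overlap and the log2 fold change was 0.60 (SE 0.10), or 1.52-fold. AKR1C2 had 6.07, 4.85 and 5.92 CPM against 9.81, 8.10 and 9.63 CPM, without overlap (log2 fold change 0.71, SE 0.12). AKR1C1 had 1.24, 0.816 and 0.865 CPM against 1.64, 1.31 and 2.09 CPM, also without overlap (0.79, SE 0.26). In TPM the AKR1C1 groups overlapped, at 1.15 to 2.39 TPM with vehicle and 1.545 to 2.79 TPM with AT-0174. AKR1C3 had 2.64, 2.27 and 2.48 CPM against 3.33, 2.34 and 2.99 CPM, which overlapped (0.23, SE 0.17). This last value was 0.12 without AT-0174 replicate 1 and 0.36 without AT-0174 replicate 2. AKR1C3 made up 26.5% to 28.6% of the summed AKR1C counts in suspended cells with vehicle and 19.9% to 22.5% with AT-0174, while AKR1C2 went from 61.0% to 63.8% up to 65.5% to 69.0%. In attached cells the AKR1C3 share was 23.8% to 31.4%.

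**Figure D4:**
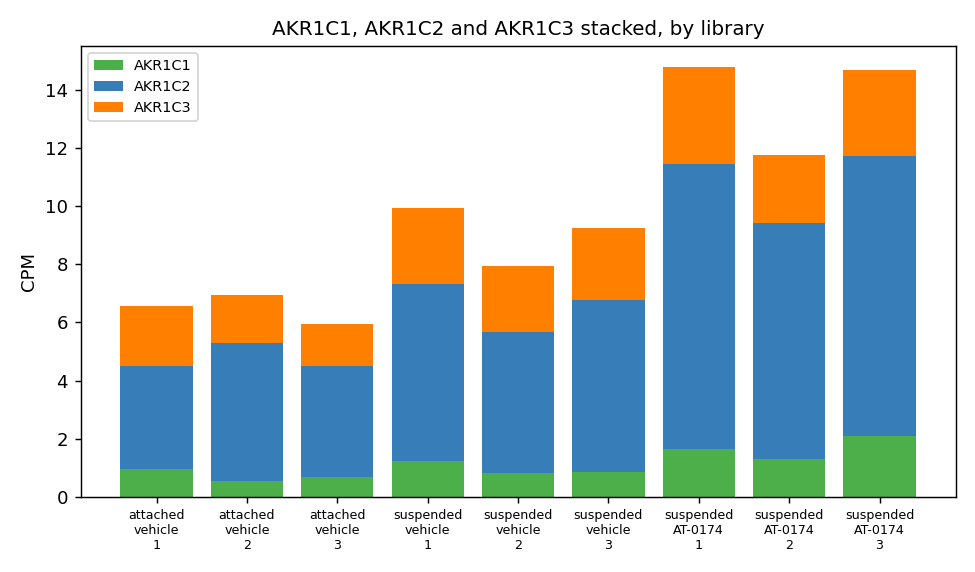
CPM of AKR1C1 (green), AKR1C2 (blue) and AKR1C3 (orange) stacked for each of the 9 libraries, on a linear axis from 0. The stacks reach about 5.95 to 6.94 CPM attached, 7.93 to 9.97 CPM suspended with vehicle and 11.8 to 14.8 CPM with AT-0174, and AKR1C2 is the largest part of each.

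Most of the AKR1C TPM was assigned to few transcripts. AKR1C2 was split between ENST00000604507 (745 bases, 49.6% of its TPM in suspended cells with vehicle) and ENST00000421196 (1481 bases, 47.3%). For AKR1C1, ENST00000442997 (744 bases) held 80.8% of TPM in the same libraries, and for AKR1C3 ENST00000380554 (1186 bases) held 99.4%. Of the near copies looked at, AKR1C4 and AKR1B15 were assigned 0 counts in all 9 libraries, and AKR1C8P 1 count in a single library. NQO2-AS1, antisense to NQO2, had at most 5 counts, and the main NQO2 transcript, ENST00000380455, held 74.9% to 80.6% of NQO2 TPM by group mean.

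AKR1B10 had 13, 2 and 3 counts with vehicle and 16, 13 and 11 with AT-0174. The overlap was made by suspended vehicle replicate 1. That library held 13 of the 18 vehicle counts, against 40 with AT-0174, so no fold change is given. With AT-0174 all of its TPM was assigned to ENST00000359579. Even there the level stayed at 0.293 ± 0.043 TPM (SD, n = 3), against 1884 ± 94.6 TPM for NQO1.

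Other enzymes of the same families gave a wider view. Of 69 related genes that are not members, 67 were in the table and 52 were tested. In suspended against attached cells 7 were higher, 3 lower and 42 did not pass (edgeR), or 10 of 52 beside 21.2% of all genes, with a median log2 fold change of 0.05. Among the aldo-keto reductases AKR7A3 rose from 19.0 ± 0.16 to 24.7 ± 1.60 CPM (SD, n = 3; log2 fold change 0.38, SE 0.07, adjusted p = 0.00299, edgeR), and AKR7A2, which reduces succinic semialdehyde, rose by 0.14 (SE 0.04, adjusted p = 0.0147, edgeR). KCNAB2, an aldo-keto reductase fold protein that serves as a potassium channel subunit, fell from 22.8 ± 2.26 to 15.7 ± 1.04 CPM (SD, n = 3; −0.54, SE 0.08, adjusted p = 0.00126, edgeR).

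The aldehyde dehydrogenases had 4 higher and 1 lower of 13 tested. ALDH3B2, a close relative of ALDH3A1, was abundant and rose from 360.0 ± 9.77 to 410.5 ± 19.3 CPM (SD, n = 3; log2 fold change 0.19, SE 0.04, adjusted p = 0.00632, edgeR). ALDH6A1, of valine catabolism, rose by 0.15 (SE 0.04, adjusted p = 0.0243, edgeR). ALDH7A1, of lysine catabolism, fell from 153 ± 5.05 to 129.8 ± 5.72 CPM (SD, n = 3; −0.24, SE 0.04, adjusted p = 0.00132, edgeR). Of the quinone and enone reductases only TP53I3, a p53 target, was called of 13 tested, at −0.19 (SE 0.06, adjusted p = 0.0390, edgeR). Of 17 short-chain carbonyl reductases only DHRS13 was, at 0.16 (SE 0.04, adjusted p = 0.0123, edgeR), and of the 3 epoxide hydrolases none was called, with 1 at an unadjusted p under 0.05. The groups of each of these named genes did not overlap. Leaving out attached replicate 2 or 3 or suspended replicate 2 ended the calls of ALDH6A1 (adjusted p = 0.0599, 0.0948 and 0.0972, edgeR) and TP53I3 (0.150, 0.0597 and 0.156), as did suspended replicate 1 for TP53I3 (0.124). The call of TP53I3 was also lost with only the 6 libraries compared (0.0522). Counts rebuilt from TPM ended the calls of KCNAB2 (0.0524, at a log2 fold change of −0.39), DHRS13 (0.0666), ALDH6A1 (0.128) and TP53I3 (0.362, edgeR).

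With AT-0174 none of the 52 related genes was called by edgeR, beside 0.779% of all genes; 3 had an unadjusted p under 0.05, DESeq2 called 1 and limma-voom 0. Their median log2 fold change was −0.02 and 23 of 52 had a value above 0. The gene DESeq2 called was PTGR1, an enone reductase of leukotriene and prostaglandin metabolism, singled out after its value was seen. PTGR1 went from 27.4 ± 2.26 to 33.1 ± 1.36 CPM (SD, n = 3; log2 fold change 0.27, SE 0.06, adjusted p = 0.0585, edgeR), without overlap. The other 2 with an unadjusted p under 0.05 were KCNAB2, at 0.26 (SE 0.08), and AKR7A2, at −0.14 (SE 0.04). AKR1B1, aldose reductase and a relative of AKR1B10, had at most 4 counts in any library and was not tested.

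Over the 9 libraries, 10528 genes with a mean of at least 5 CPM were ranked by how closely their log2 CPM followed NQO1 (Pearson r, as a description across libraries that share their groups). The 5 closest were PIR (r = 0.995), TKT (0.990), TRIM16L (0.990), UGT1A6 (0.989) and TXNRD1 (0.988). PIR went from 19.7 CPM attached and 19.8 CPM suspended with vehicle to 29.2 CPM with AT-0174, on group means. TXNRD1 went from 205 and 201 to 297 CPM, and UGT1A6, whose last exons are common to all UGT1A genes, from 237 and 237 to 348 CPM. Each of the 5 had its highest mean with AT-0174. Ranking by likeness to NQO1 fixed this, so nothing is read from it. Among the members ranked, r with NQO1 was 0.882 for NQO2, 0.874 for AKR1C2, 0.848 for EPHX1 and 0.745 for CBR3. As the members were chosen on the AT-0174 comparison, these values are a description only.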

How the data were processed

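Values came from a table of estimated counts per gene and a transcript table per library, both deposited by the authors. Per the labels and the methods of the study, adapters were removed with cutadapt 3.4 in Trim Galore 0.6.7, reads were aligned with STAR 2.7.9a to GRCh38, quantified with Salmon 1.10.1 and summed by gene. The deposited estimated counts were not normalized, and each equals the sum of its transcripts (largest difference 5.82e-11). The authors' TPM values are corrected by Salmon for effective length and scaled to a fixed total per library. The deposited effective lengths were used to rebuild counts, and the transcript lengths in bases are given as deposited. The labels and the methods name different library kits, and the strand setting is not given in the sources used here. The study is a cell line in biological triplicate, so p-values measure the spread between these cultures.

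Estimated counts were rounded, filtered by filterByExpr, scaled by TMM and fitted with edgeR 4.0.16 (R 4.3.3) by quasi-likelihood, all 9 libraries in a single fit with group as the only term. P-values were adjusted by Benjamini-Hochberg over 15528 genes and called under 0.05. CPM uses TMM-scaled totals. The SE is the log2 fold change over the square root of F. The AKR1C sum was fitted by replacing the 3 genes in the table. A count of 0 was taken to allow up to 3 counts. The procedure was run on counts simulated from the fitted model, which does not test how well that model describes the data. Alternatives were DESeq2 1.42.0 and its size factors, limma 3.58.1 (limma-voom), no filter, at least 10 counts in every library, only the 6 libraries compared, the replicate number as a block, counts rebuilt from TPM, and each library left out.

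The members, lists and alternatives were chosen with earlier results of these data known. Named genes were the members, their near copies and antisense partners, up to 5 related genes called each way with a mean of at least 50 counts, the 5 genes most like NQO1, and each member's leading transcript. Gene positions and transcript sequences are from GENCODE release 44 and promoters from RefSeq.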

Additional observations from a re-analysis of the deposited data

How the results depend on the processing

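For suspended against attached cells, edgeR called 3297 genes, 4 members and 10 related genes; counts rebuilt from TPM gave 1726, 1 and 4, and leaving out 1 library gave 1935 to 2693, 2 to 3 and 6 to 10, with the lowest gene count without attached replicate 3 (1951 without suspended replicate 2). For AT-0174 against vehicle, 121 genes, 4 members and 0 related genes were called. DESeq2 gave 239 genes and 1 related gene, no filter on low counts gave 499 and 2 (PTGR1 and KCNAB2), at least 10 counts in every library gave 1 related gene, and counts rebuilt from TPM gave 35 genes and 2 members. Leaving out 1 library gave 63 to 86 genes, 2 to 3 members and 0 to 1 related genes. Fewer samples enter these fits, and the cause of the lower counts was not tested. The AKR1C sum kept its direction and call in suspension in all 14 alternatives, at a log2 fold change of 0.41 to 0.57.

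The sign turned only for values near 0: NQO1 in suspension was 0.0009 without a filter and −0.0163 to 0.0165 with 1 library left out, and with AT-0174 ALDH7A1 ran from −0.0596 to 0.0013 and TP53I3 from −0.0582 to 0.0272. With AT-0174, NQO1 stayed at 0.77 to 0.81 in all 14 alternatives. Same-numbered libraries had correlations of deviations from the group mean of 0.0167, −0.0176 and 0.0531 between attached and suspended cells. Between AT-0174 and vehicle these were 0.0547, −0.0015 and −0.0433. Libraries with different numbers ran from −0.0453 to 0.0291 and from −0.1006 to 0.1043. So few values cannot exclude a pairing by replicate number. With the replicate number as a block, 5 members were called in suspension, adding AKR1C3 (log2 fold change 0.52, adjusted p = 0.0446, edgeR), and 4 with AT-0174. Requiring at least 10 counts in every library also called 5, with AKR1C3 (adjusted p = 0.0495, edgeR). At this depth AKR1B10 and CBR1 were at or near the limit of counting, and AKR1C1 rested on 19.1 to 91.9 estimated counts per library.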
